A study of Homo sapiens with 9 samples.

Results

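Copying the genome requires a set of proteins that load the replicative helicase onto origins, switch it on, copy both strands, join the pieces, supply the nucleotides and repack the new DNA into chromatin. Messenger RNA of 57 genes with these roles was followed in the human fibrosarcoma line HT1080. The members were named by hand, by role, and a member was measured where a probe set carrying its symbol alone had values. Of the 57 listed genes 55 had values, out of 9453 genes with values in all. GINS4, a subunit of the GINS complex, and CLSPN, which encodes the checkpoint adaptor claspin, had none.

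HT1080 is an established line derived from a fibrosarcoma, a malignant tumour of connective tissue. The study asked how the enzyme methylthioadenosine phosphorylase (MTAP), which recycles methylthioadenosine from polyamine synthesis into methionine and adenine, and its inhibitor MT-DADMe-ImmA alter expression in these cells. The 3 groups of 3 Affymetrix arrays each were MTAP+ HT1080 cells given the inhibitor at 10 µM for 48 hours before harvest (called inhibitor-treated below), MTAP+ HT1080 cells without treatment, and MTAP- HT1080 cells without treatment. All were grown in DMEM to the same stated confluency. The sources used here do not give how the MTAP+ cells were derived or whether they are 1 clone, and no vehicle is named for the untreated groups. The series calls the arrays biological replicates. The p-value of a log2 change sets the difference between groups against the spread of replicate arrays within groups.

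In G1 phase the origin recognition complex (ORC), CDC6 and CDT1 load the MCM2-7 helicase as an inactive ring, a step called licensing. At the start of S phase the kinase CDC7 with DBF4, and the cyclin-dependent kinases, bring CDC45, the GINS complex and MCM10 to the ring, which then unwinds DNA ahead of the polymerases. Many of these genes are transcribed under E2F factors, so that their mRNA is made around the passage from G1 into S phase.

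The probe set for MTAP itself averaged 11.20 ± 0.10 in inhibitor-treated cells, 11.58 ± 0.19 in MTAP+ cells and 4.56 ± 0.41 in MTAP- cells (log2 intensity, mean ± SD, n = 3 each), which matched the labels. Array medians lay between 8.24 and 8.38. Of the connective-tissue markers checked, 8 of 10 had values, with S100A4 and COL5A1 without, and the mesenchymal filament gene VIM averaged 14.003 ± 0.05 in inhibitor-treated, 13.93 ± 0.09 in MTAP+ and 14.02 ± 0.05 in MTAP- cells. None of 10 epithelial and 0 of 8 endothelial markers had values, and of 10 blood markers only IKZF1 and LYZ did. The lysozyme gene LYZ averaged 5.68 ± 0.05 in inhibitor-treated, 7.35 ± 0.51 in MTAP+ and 4.89 ± 0.06 in MTAP- cells. An RNA quality measure had a lower mean in MTAP- cells, though the MTAP- arrays overlapped those of the other groups. This measure was the signal of the 5' end of ACTB less that of its 3' end, on the control probe sets. It averaged -1.64 ± 0.66 in inhibitor-treated, -1.43 ± 0.45 in MTAP+ and -2.50 ± 0.90 in MTAP- cells (log2, SD, n = 3 each), and was lowest on MTAP- replicate 3 (-3.52). Its exact two-sided permutation p was 0.7 for inhibitor-treated against MTAP+, 0.2 for MTAP+ against MTAP- and 0.4 for inhibitor-treated against MTAP- cells, where 3 arrays against 3 cannot go below 0.1. The same difference for GAPDH averaged -0.23 ± 0.13 in inhibitor-treated, -0.18 ± 0.16 in MTAP+ and -0.61 ± 0.41 in MTAP- cells. It too was lowest on MTAP- replicate 3 (-1.06), and its permutation p was 0.8, 0.2 and 0.3 for the comparisons in that order. The part of RNA quality in the results was not tested beyond adding the ACTB difference to the fit as a covariate.

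Inhibitor treatment of MTAP+ cells lowered 19 of the 55 genes and raised none. In 51 of 55 the change was below 0, and the median log2 change of the 55 was -0.34, against -0.02 over all genes. The genes that fell lie in every role, among them RRM2, CDC6, MCM10, UHRF1, GMNN, FEN1, GINS1, CDC45 and PCNA, while the MCM2 to MCM7 ring genes, the replication factor C genes and the RPA genes gave no call on the probe set used. Calls are limma results with a Benjamini-Hochberg adjusted p below 0.05 over all genes. By that rule 7.49% of all genes were lower and 5.95% higher, while 34.5% of the members were lower. In RNA from whole cultures, fewer cells in S phase and less of an mRNA per cell cannot be told apart. The 3 arrays of each group stood clear of each other, all lower with inhibitor, for 30 members, where 19.1% of all genes did so.

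Without inhibitor-treated replicate 3 the number of members that fell was 11 instead of 19, and the number over all genes in either direction was 370 instead of 1270. The same-numbered arrays of these groups deviated together, and with the replicate number as a block 27 members fell and none rose, where 11% of all genes fell and 9.27% rose.

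MTAP+ cells without inhibitor, set against MTAP- cells, had 10 members lower and 1 higher. The median log2 change of the 55 was -0.21, against 0.02 over all genes. In either direction 11 of 55 members (20%) were called, close to the 18.5% of all genes, but the lower calls were 10 members where 6.85% of all genes were lower, and DUT was the 1 higher call where 11.7% of all genes were higher. Over all genes the share of calls that were higher depended on scaling: it was 63.0% as deposited and 45.5% with each array centred on its median, so the balance of directions over all genes is not settled, while the member median moved to -0.29. The arrays of these groups stood apart for 21 members that were lower and 1 that was higher, where 15.2% of all genes were lower and 19.6% higher in that way. With the replicate block 12 members were lower and 1 higher, where 9.96% of all genes were lower. The member count was not stable, nor was the count over all genes, 1750 in the main fit. The member count was 6 without MTAP- replicate 2, 6 without MTAP- replicate 3, 6 without MTAP+ replicate 3 and 7 without MTAP+ replicate 1. Over all genes these fits gave 1156, 1014, 1040 and 1272 calls in that order. With the ACTB difference as a covariate 6 members were called, where all genes gave 662 calls. ORC5, GINS2, CDC7, PRIM1 and DUT lost their calls there. With that covariate and the replicate block together 0 members were called, where all genes gave 98 calls.

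Inhibitor-treated MTAP+ cells, set against MTAP- cells, had 35 members lower and none higher (63.6%), where 16.2% of all genes were lower and 18.8% higher. The median log2 change was -0.55, against 0.0020 over all genes. Since the comparisons share arrays, this difference is the sum of the other two and is no separate evidence for either. The arrays stood apart for 39 members, 38 of them lower, where 52.7% of all genes stood apart and 25.8% were lower. With the replicate block, although same-numbered arrays deviated together least in this comparison, 37 members were lower, where 20.3% of all genes were. With the ACTB covariate and the block together 22 members were called, where all genes gave 1127 calls. Across the 3 comparisons, GMNN, MCM10 and GINS2 were lower in all, 16 genes were lower with inhibitor against both untreated groups only, and 7 were lower in both MTAP+ groups against MTAP- cells only. Another 9 were called only between inhibitor-treated and MTAP- cells, 19 in none, and DUT was higher in MTAP+ than in MTAP- cells.

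**Figure D1:**
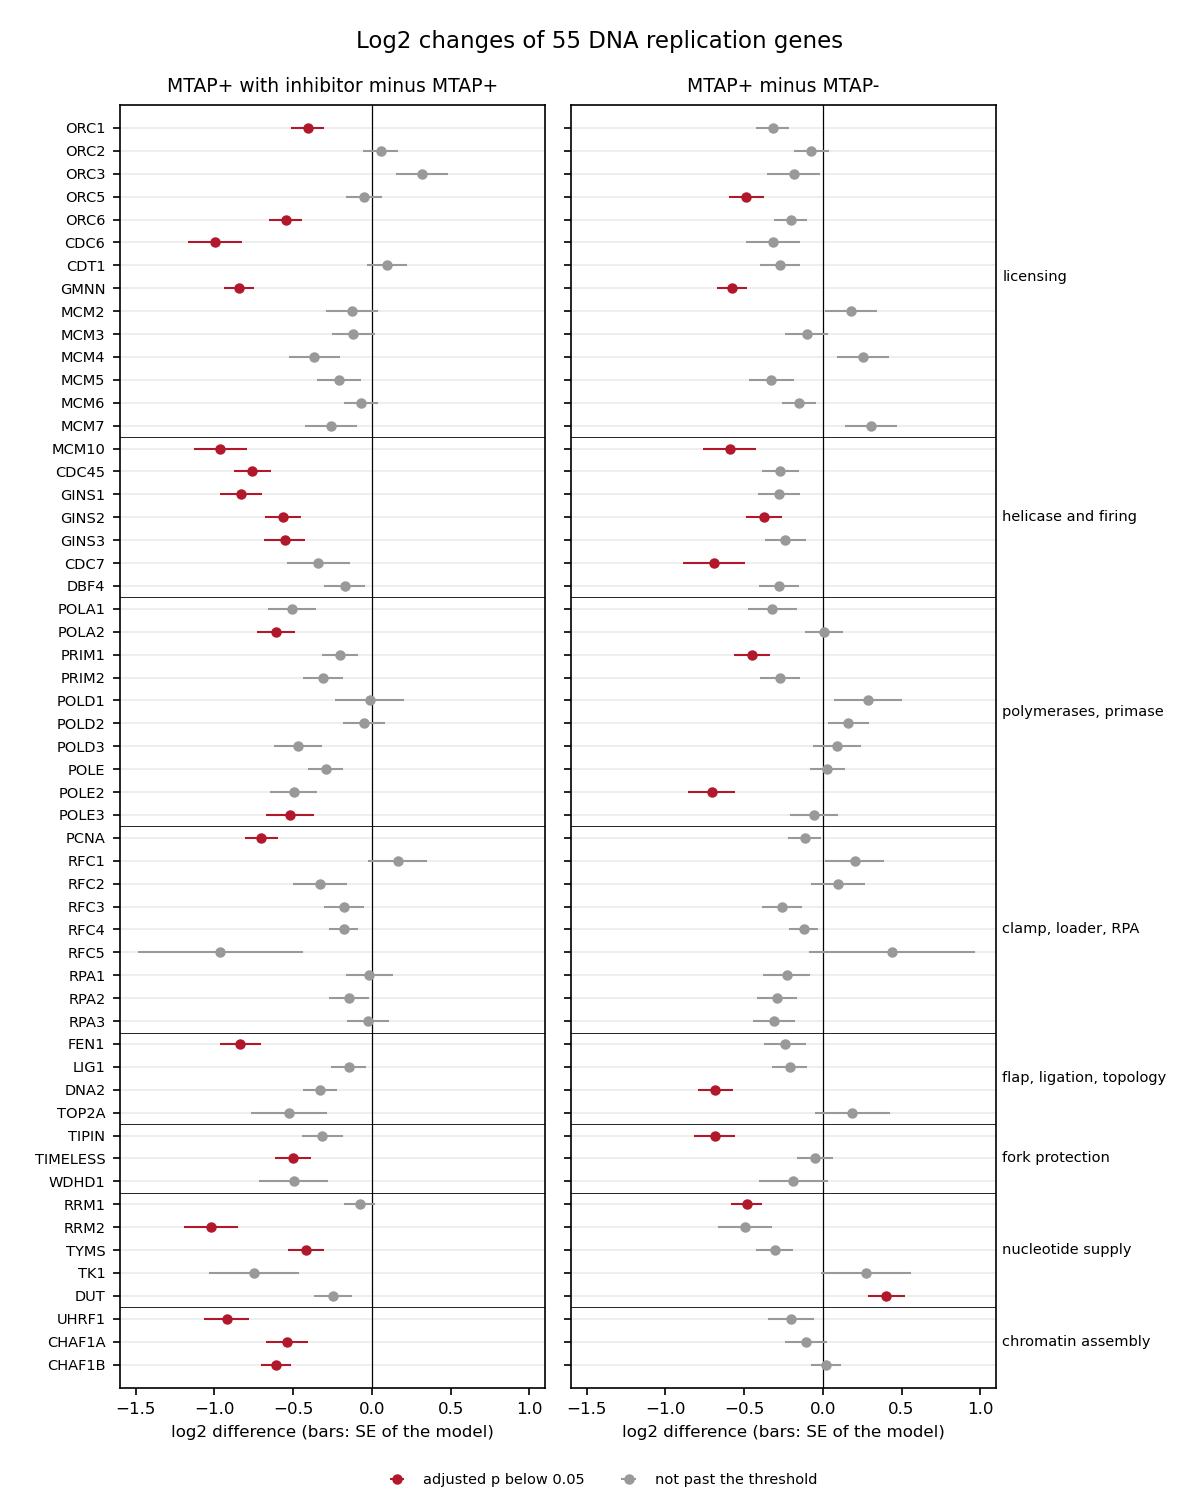
Log2 difference (x axis, log2 units) of the 55 measured replication genes (rows, grouped by role) for inhibitor-treated minus MTAP+ cells (left) and MTAP+ minus MTAP- cells (right). Points are the fitted differences over 3 arrays a group, bars are the model's SE, and red marks an adjusted p below 0.05. On the left 19 genes are red and all lie below 0, with the widest fall for RRM2 at -1.02. On the right 10 red genes lie below 0 and DUT lies above it at 0.40.

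Of 14 licensing genes 4 fell with inhibitor, the loaders ORC1, ORC6 and CDC6 and the regulator GMNN, and none of the 6 genes of the ring did. Over all genes 7.49% fell. Each role holds few genes, and no role was tested against the share over all genes. Whether loaders and ring genes differ from each other was not tested. The values are log2 intensities of replicates 1, 2 and 3 in that order. CDC6, the ATPase that joins ORC to recruit MCM2-7, had 7.64, 7.96 and 7.30 in inhibitor-treated cells, 8.78, 8.78 and 8.33 in MTAP+ cells and 8.95, 8.91 and 8.97 in MTAP- cells. Every inhibitor-treated array lay below every other array, with a log2 change of -0.997 ± 0.17 (SE, n = 3 each) against MTAP+ cells, which is 2-fold lower (limma adjusted p = 0.00605). Between MTAP+ and MTAP- cells the difference was -0.32 ± 0.17 (adjusted p = 0.225).

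GMNN encodes geminin, which binds CDT1 and blocks relicensing in S and G2 phase. Its levels were 9.57, 9.61 and 9.46 in inhibitor-treated cells, 10.32, 10.49 and 10.37 in MTAP+ cells and 10.97, 10.998 and 10.94 in MTAP- cells. The 3 groups formed 3 separate tiers, with inhibitor-treated cells lowest and MTAP- cells highest. GMNN fell by 0.84 ± 0.10 with inhibitor (adjusted p = 0.0011) and was lower in MTAP+ than in MTAP- cells by a log2 change of -0.58 ± 0.10 (adjusted p = 0.00274). Inhibitor-treated and MTAP- cells differed by -1.42 ± 0.10 (adjusted p = 8.82e-06), a 2.68-fold lower level.

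ORC6, the smallest ORC subunit, had 8.68, 8.62 and 8.82 in inhibitor-treated cells, 9.39, 9.17 and 9.19 in MTAP+ cells and 9.39, 9.53 and 9.45 in MTAP- cells, and inhibitor-treated arrays lay below all others (-0.55 ± 0.10 against MTAP+ cells, adjusted p = 0.00872). ORC1, the subunit with the ATPase that drives CDC6 and MCM loading, had 6.51, 6.53 and 6.50 in inhibitor-treated cells, 6.94, 6.96 and 6.87 in MTAP+ cells and 7.30, 7.36 and 7.05 in MTAP- cells. Its inhibitor-treated mean lay under 6.64, the floor that the filter of the deposited table used. With that mean set to the floor the fall against MTAP+ cells was 0.28 (fitted change -0.41 ± 0.10, adjusted p = 0.0295). With values set to the floor the call was lost (adjusted p = 0.0937), and it was also lost without any 1 of MTAP+ replicates 1 and 2 or inhibitor-treated replicates 1, 2 and 3 (adjusted p from 0.0593 to 0.109). Between MTAP+ and MTAP- cells ORC1 missed the threshold (-0.32 ± 0.10, adjusted p = 0.0581) and passed it with the replicate block (adjusted p = 0.037).

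ORC5, another ORC subunit, had 8.68, 8.96 and 8.83 in inhibitor-treated cells, 8.84, 8.97 and 8.81 in MTAP+ cells and 9.22, 9.37 and 9.48 in MTAP- cells, both MTAP+ groups lying below the MTAP- arrays. The change was -0.48 ± 0.11 for MTAP+ against MTAP- cells (adjusted p = 0.0154) and -0.05 ± 0.11 for inhibitor-treated against MTAP+ cells (adjusted p = 0.814). The MTAP call was lost without MTAP- replicate 3 or MTAP+ replicate 3 (adjusted p from 0.0568 to 0.0579) and when its probe sets were averaged (-0.30, adjusted p = 0.0668). Its other probe set gave -0.12 ± 0.13 for MTAP status (adjusted p = 0.579) and -0.31 ± 0.13 for the inhibitor (adjusted p = 0.173). The other subunits ORC2 and ORC3 and the loader CDT1 passed in no comparison, and their changes with inhibitor were 0.06, 0.32 and 0.10.

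The 6 ring genes MCM2 to MCM7 changed with inhibitor by between -0.37 for MCM4 and -0.07 for MCM6, with adjusted p from 0.165 to 0.717. Their 95% intervals ran from -0.73 to 0.24, so that a fall as large as 0.73 is within the error of at least 1 of them. Equal levels are not shown. For MCM4 alone the interval left out 0 (-0.73 to -0.0073), without adjustment for the number of genes. Its inhibitor-treated arrays lay below its MTAP+ arrays, as for 19.1% of all genes. MCM2 had 10.67, 10.80 and 10.53 in inhibitor-treated cells, 10.81, 10.91 and 10.66 in MTAP+ cells and 10.84, 10.20 and 10.80 in MTAP- cells, and the groups overlapped. MCM5 had 10.13, 9.89 and 9.75 in inhibitor-treated cells, 10.33, 9.90 and 10.17 in MTAP+ cells and 10.50, 10.57 and 10.30 in MTAP- cells, and of the 6 it alone was called, lower in inhibitor-treated than in MTAP- cells (-0.54 ± 0.14, adjusted p = 0.0144). That call was lost without MTAP- replicate 2 or inhibitor-treated replicate 3 (adjusted p from 0.0517 to 0.0647), and without s_at and x_at probe sets (-0.40, adjusted p = 0.0717).

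**Figure D2:**
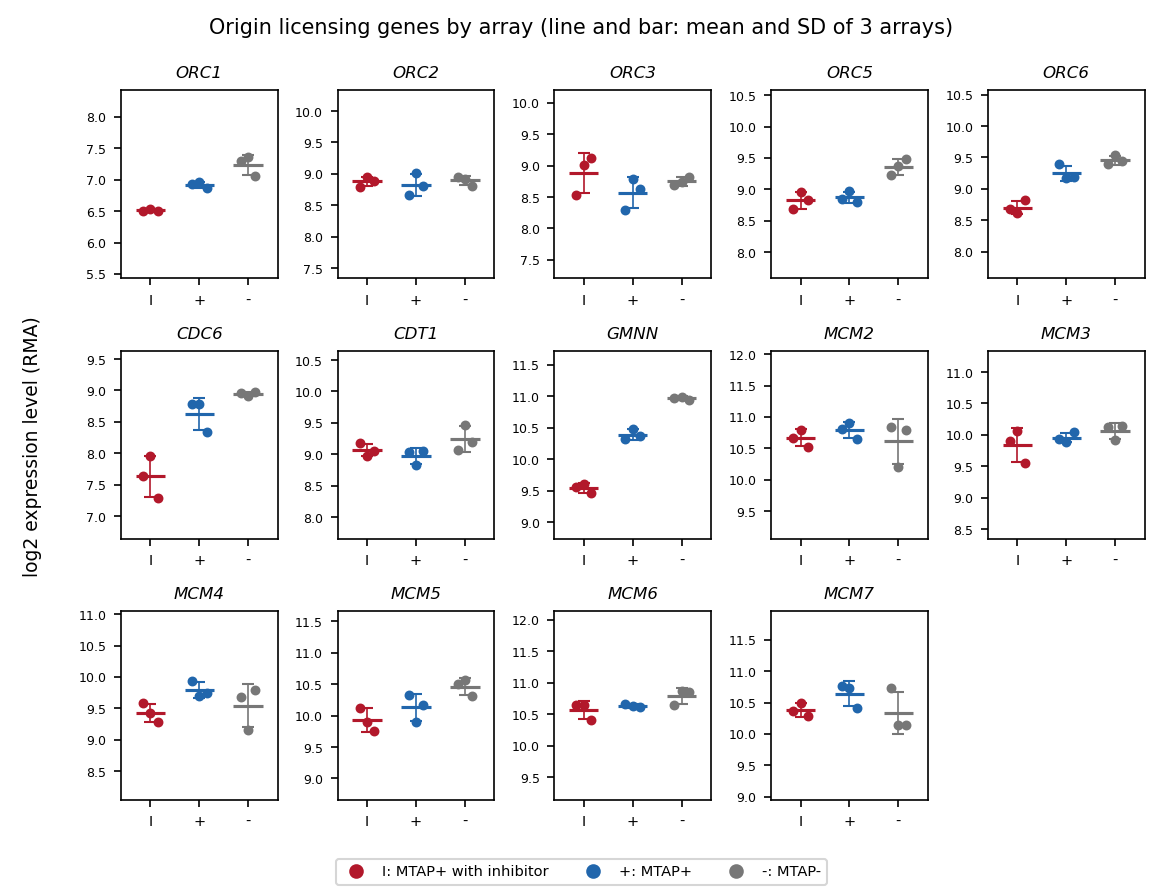
Log2 intensity (y axis) on each array for the 14 licensing genes, with inhibitor-treated cells at the left of each panel, MTAP+ cells in the middle and MTAP- cells at the right. Points are arrays, horizontal lines are group means and vertical bars are the SD (n = 3), and each panel spans the same range in log2 units. CDC6 and GMNN step down to the inhibitor-treated arrays, while the MCM2 and MCM6 groups overlap.

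Among the genes that turn the loaded ring into a working helicase, 5 of 7 measured fell with inhibitor, and all 7 were lower in inhibitor-treated than in MTAP- cells. Over all genes these shares were 7.49% and 16.2%. MCM10, which helps the helicase open at origins, had 7.96, 8.25 and 7.66 in inhibitor-treated cells, 8.99, 9.15 and 8.62 in MTAP+ cells and 9.53, 9.42 and 9.58 in MTAP- cells. The tiers again ran from inhibitor-treated to MTAP+ to MTAP- cells without overlap, with -0.96 ± 0.17 for the inhibitor (adjusted p = 0.00648) and -0.59 ± 0.17 for MTAP+ against MTAP- cells (adjusted p = 0.0365). The second of these was lost without any 1 of 6 arrays, namely MTAP- replicates 1, 2 and 3, MTAP+ replicates 1 and 3, and inhibitor-treated replicate 1 (adjusted p from 0.0528 to 0.121). Without s_at and x_at probe sets MCM10 was read by another probe set, which gave -0.48 for the inhibitor (adjusted p = 0.0429) and -0.33 for MTAP status (adjusted p = 0.115), so that the MTAP call was lost, and -0.80 for inhibitor-treated against MTAP- cells (adjusted p = 0.00135).

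CDC45, which with GINS holds the helicase in its active form, had 7.39, 7.30 and 7.03 in inhibitor-treated cells, 8.11, 7.87 and 8.02 in MTAP+ cells and 8.31, 8.30 and 8.20 in MTAP- cells. Inhibitor-treated arrays lay lowest, -0.76 ± 0.12 against MTAP+ cells (adjusted p = 0.00392). GINS1 had 9.58, 9.36 and 9.49 in inhibitor-treated cells, 10.53, 10.14 and 10.25 in MTAP+ cells and 10.38, 10.64 and 10.73 in MTAP- cells, and the inhibitor-treated arrays were again below all others (-0.83 ± 0.13, adjusted p = 0.00482, 1.78-fold lower).

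The GINS subunit gene GINS2 had 9.24, 9.01 and 8.91 in inhibitor-treated cells, 9.76, 9.58 and 9.51 in MTAP+ cells and 10.01, 9.94 and 10.02 in MTAP- cells. The 3 groups did not overlap, with -0.56 ± 0.11 for the inhibitor (adjusted p = 0.0114) and -0.37 ± 0.11 for MTAP status (adjusted p = 0.0459). The inhibitor call was lost without inhibitor-treated replicate 3 (adjusted p = 0.064), and the MTAP call was lost without any 1 of MTAP- replicates 1, 2 and 3, MTAP+ replicates 2 and 3, and inhibitor-treated replicates 2 and 3 (adjusted p from 0.0571 to 0.143). GINS3 had 7.66, 7.51 and 7.23 in inhibitor-treated cells, 8.18, 7.97 and 7.91 in MTAP+ cells and 8.20, 8.20 and 8.38 in MTAP- cells and fell with inhibitor by 0.55 ± 0.13 (adjusted p = 0.0207), a call lost without MTAP+ replicate 1 or inhibitor-treated replicates 2 or 3 (adjusted p from 0.0538 to 0.0948).

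The firing kinase was called in another comparison. CDC7 had 7.88, 8.20 and 8.10 in inhibitor-treated cells, 7.995, 8.72 and 8.48 in MTAP+ cells and 8.75, 9.33 and 9.19 in MTAP- cells. Every MTAP- array lay above every array of the MTAP+ groups, which overlapped each other. The change was -0.69 ± 0.20 for MTAP+ against MTAP- cells (adjusted p = 0.036), lost without MTAP- replicates 2 or 3, MTAP+ replicates 1 or 3, or inhibitor-treated replicate 3 (adjusted p from 0.0557 to 0.12). With inhibitor CDC7 changed by -0.34 ± 0.20 (adjusted p = 0.287, or 0.0463 with the replicate block). DBF4, its activating subunit, had 8.25, 8.25 and 8.40 in inhibitor-treated cells, 8.45, 8.60 and 8.37 in MTAP+ cells and 8.76, 8.98 and 8.53 in MTAP- cells. It was called between inhibitor-treated and MTAP- cells (-0.45 ± 0.13, adjusted p = 0.0196), though not without MTAP- replicates 1 or 2 or inhibitor-treated replicates 1 or 2 (adjusted p from 0.0502 to 0.0654).

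Of the 10 polymerase and primase genes, 2 fell with inhibitor, 2 others were lower in MTAP+ than in MTAP- cells, and 6 were lower in inhibitor-treated than in MTAP- cells. Over all genes 7.49%, 6.85% and 16.2% were lower in these comparisons, in that order. POLA2, the regulatory subunit of polymerase alpha, had 8.75, 8.55 and 8.59 in inhibitor-treated cells, 9.43, 9.08 and 9.20 in MTAP+ cells and 9.36, 9.10 and 9.23 in MTAP- cells. The untreated groups differed by 0.0066 ± 0.12 and inhibitor-treated cells were lower (-0.61 ± 0.12 against MTAP+ cells, adjusted p = 0.0107), a call lost without inhibitor-treated replicate 3 (adjusted p = 0.056). POLE3, a histone-fold subunit of polymerase epsilon, had 8.94, 9.07 and 8.89 in inhibitor-treated cells, 9.59, 9.59 and 9.28 in MTAP+ cells and 9.81, 9.59 and 9.23 in MTAP- cells and fell by 0.52 ± 0.15 with inhibitor (adjusted p = 0.0457). This was lost without any 1 of MTAP- replicate 2, MTAP+ replicates 1 and 2, and inhibitor-treated replicates 1, 2 and 3 (adjusted p from 0.0611 to 0.16), and between inhibitor-treated and MTAP- cells (-0.58 ± 0.15, adjusted p = 0.0138) without MTAP- replicate 1 or inhibitor-treated replicate 3 (adjusted p from 0.0522 to 0.0533).

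POLE2, the second subunit of polymerase epsilon, had 7.34, 7.58 and 7.25 in inhibitor-treated cells, 7.73, 8.19 and 7.75 in MTAP+ cells and 8.45, 8.73 and 8.60 in MTAP- cells. It stood in 3 separate tiers, with a log2 change of -0.70 ± 0.15 for MTAP+ against MTAP- cells (adjusted p = 0.00949), and of -0.50 ± 0.15 for the inhibitor, just short of the threshold (adjusted p = 0.05014, or 0.00968 with the block). PRIM1, the catalytic subunit of primase, had 8.90, 9.06 and 8.91 in inhibitor-treated cells, 8.99, 9.25 and 9.25 in MTAP+ cells and 9.47, 9.73 and 9.64 in MTAP- cells. Both MTAP+ groups overlapped each other and lay below MTAP- cells, with -0.45 ± 0.12 for MTAP+ against MTAP- cells (adjusted p = 0.0238), lost without MTAP- replicates 2 or 3 or MTAP+ replicate 1 (adjusted p from 0.0684 to 0.0735).

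POLA1, the catalytic subunit of polymerase alpha, had 7.64, 7.87 and 7.27 in inhibitor-treated cells, 7.90, 8.20 and 8.21 in MTAP+ cells and 8.41, 8.49 and 8.37 in MTAP- cells. With inhibitor it changed by -0.51 ± 0.15 (adjusted p = 0.0517, or 0.0298 with the block), and against MTAP- cells its change was -0.83 ± 0.15 (adjusted p = 0.00222). PRIM2, the large subunit of primase, had 7.31, 7.10 and 7.03 in inhibitor-treated cells, 7.56, 7.35 and 7.46 in MTAP+ cells and 7.74, 7.92 and 7.53 in MTAP- cells and was called only between inhibitor-treated and MTAP- cells (-0.58 ± 0.13, adjusted p = 0.00553). The polymerase delta genes and POLE passed in no comparison. POLD1, the catalytic subunit of polymerase delta, had 9.24, 8.83 and 9.13 in inhibitor-treated cells, 9.22, 8.74 and 9.30 in MTAP+ cells and 9.13, 8.93 and 8.32 in MTAP- cells, with overlapping groups and an inhibitor change of -0.02 ± 0.22 (adjusted p = 0.975, 95% interval -0.49 to 0.46). POLD2 changed by -0.05 with inhibitor, POLE by -0.29 and POLD3 by -0.47, the last called only with the block (adjusted p = 0.0265).

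PCNA, the sliding clamp that holds polymerases on DNA, fell with inhibitor while none of the members that load it or coat single-stranded DNA passed on the probe set used. It had 11.45, 11.37 and 11.32 in inhibitor-treated cells, 12.13, 12.15 and 11.95 in MTAP+ cells and 12.11, 12.32 and 12.15 in MTAP- cells. The inhibitor-treated arrays lay below all 6 untreated arrays, -0.70 ± 0.10 against MTAP+ cells (adjusted p = 0.00304) or 1.63-fold lower, and the untreated groups differed by -0.12 ± 0.10 (adjusted p = 0.468).

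None of the 5 replication factor C genes, which encode the clamp loader, passed with inhibitor or with MTAP status on the probe set used, although RFC2 passed the inhibitor comparison with the block (adjusted p = 0.0376). RFC3 had 10.12, 10.28 and 10.19 in inhibitor-treated cells, 10.16, 10.64 and 10.32 in MTAP+ cells and 10.63, 10.57 and 10.71 in MTAP- cells and RFC4 had 10.05, 9.93 and 10.002 in inhibitor-treated cells, 10.23, 10.13 and 10.16 in MTAP+ cells and 10.25, 10.38 and 10.26 in MTAP- cells. Both were called between inhibitor-treated and MTAP- cells, with changes of -0.44 ± 0.13 (adjusted p = 0.0224) for RFC3 and -0.30 ± 0.09 (adjusted p = 0.0285) for RFC4. The RFC3 call was lost without MTAP- replicates 1 or 3 or inhibitor-treated replicates 1 or 3 (adjusted p from 0.0541 to 0.0765) and when its probe sets were averaged (-0.29, adjusted p = 0.228), its other probe set giving -0.15 ± 0.26 (adjusted p = 0.688). The RFC4 call was lost without any 1 array of either group (adjusted p from 0.0522 to 0.103). RFC1 changed by 0.16 with inhibitor and RFC5 by -0.96 ± 0.52, the widest error of any member.

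RPA coats the single-stranded DNA behind the helicase. RPA3, its smallest subunit, had 10.20, 10.09 and 10.03 in inhibitor-treated cells, 10.30, 9.84 and 10.26 in MTAP+ cells and 10.44, 10.34 and 10.54 in MTAP- cells, and its inhibitor change was -0.02 ± 0.13 (adjusted p = 0.929). RPA2, the middle subunit, had 9.48, 9.59 and 9.26 in inhibitor-treated cells, 9.66, 9.69 and 9.41 in MTAP+ cells and 9.84, 9.76 and 10.03 in MTAP- cells and was called only between inhibitor-treated and MTAP- cells (-0.43 ± 0.13, adjusted p = 0.0226), a call lost without MTAP- replicate 3 or inhibitor-treated replicates 1 or 3 (adjusted p from 0.0507 to 0.0971). RPA1 changed by -0.02 with inhibitor.

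Of the 4 genes that finish lagging-strand pieces or untangle the products, 1 was lower with inhibitor and another in MTAP+ than in MTAP- cells. Over all genes 7.49% and 6.85% were lower in these comparisons. FEN1, the nuclease that trims flaps between these pieces, had 10.55, 10.44 and 10.18 in inhibitor-treated cells, 11.35, 11.22 and 11.11 in MTAP+ cells and 11.58, 11.27 and 11.55 in MTAP- cells. All inhibitor-treated arrays lay below all others, with a change of -0.84 ± 0.13 against MTAP+ cells (adjusted p = 0.00408, 1.79-fold lower). DNA2, a nuclease and helicase that cuts long flaps, had 6.68, 6.47 and 6.50 in inhibitor-treated cells, 6.79, 7.03 and 6.82 in MTAP+ cells and 7.52, 7.66 and 7.50 in MTAP- cells. The MTAP+ arrays lay below the MTAP- arrays, with a change of -0.68 ± 0.11 (adjusted p = 0.00236), and of -0.33 ± 0.11 for the inhibitor (adjusted p = 0.0712). Its inhibitor-treated mean lay under the floor of 6.64. With that mean set to the floor the fall against MTAP- cells was 0.92 (fitted -1.01 ± 0.11, adjusted p = 1.13e-04).

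LIG1, the ligase that seals the pieces, had 8.48, 8.44 and 8.40 in inhibitor-treated cells, 8.72, 8.41 and 8.63 in MTAP+ cells and 8.85, 8.68 and 8.87 in MTAP- cells and was called only between inhibitor-treated and MTAP- cells (-0.36 ± 0.11, adjusted p = 0.0268). That was lost without MTAP- replicates 1 or 3 or any 1 inhibitor-treated array (adjusted p from 0.0582 to 0.0889). TOP2A, the topoisomerase that untangles sister DNA, had 10.32, 10.81 and 10.87 in inhibitor-treated cells, 10.83, 11.76 and 10.99 in MTAP+ cells and 11.21, 10.72 and 11.08 in MTAP- cells. Its groups overlapped, with -0.53 ± 0.24 for the inhibitor (adjusted p = 0.177).

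TIMELESS and TIPIN encode partners in 1 complex that steadies the moving fork, and both were called between inhibitor-treated and MTAP- cells, TIMELESS by -0.55 ± 0.11 (adjusted p = 0.00395) and TIPIN by -1.003 ± 0.13 (adjusted p = 3.13e-04). In the other comparisons TIMELESS passed for the inhibitor alone and TIPIN for MTAP status alone. TIMELESS had 8.97, 8.75 and 8.71 in inhibitor-treated cells, 9.48, 9.25 and 9.21 in MTAP+ cells and 9.37, 9.44 and 9.29 in MTAP- cells, with a change of -0.50 ± 0.11 for the inhibitor (adjusted p = 0.0182) and of -0.05 ± 0.11 for MTAP status (adjusted p = 0.789). TIPIN had 7.21, 7.38 and 7.31 in inhibitor-treated cells, 7.53, 7.81 and 7.50 in MTAP+ cells and 8.21, 8.53 and 8.17 in MTAP- cells, with -0.69 ± 0.13 for MTAP+ against MTAP- cells (adjusted p = 0.00562) and -0.32 ± 0.13 for the inhibitor (adjusted p = 0.137, or 0.0443 with the block). That the partners differ from each other was not tested. The TIMELESS call was lost without MTAP+ replicate 1 or inhibitor-treated replicates 2 or 3 (adjusted p from 0.0593 to 0.0883).

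WDHD1, which ties polymerase alpha to the helicase, had 6.32, 6.71 and 6.42 in inhibitor-treated cells, 6.59, 7.34 and 7.01 in MTAP+ cells and 7.19, 7.54 and 6.77 in MTAP- cells and was called between inhibitor-treated and MTAP- cells (-0.68 ± 0.22, adjusted p = 0.0342). The inhibitor-treated mean was under the floor, and with that mean set to the floor the fall was 0.52. The call was lost with values set to the floor (adjusted p = 0.0823) and without MTAP- replicates 1 or 2 or inhibitor-treated replicates 1 or 3 (adjusted p from 0.0798 to 0.126). It was also lost when its probe sets were averaged (-0.50, adjusted p = 0.117). With inhibitor against MTAP+ cells it changed by -0.50 ± 0.22 (adjusted p = 0.165, or 0.0423 with the block).

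Ribonucleotide reductase makes deoxynucleotides and has a large subunit, RRM1, and a small subunit, RRM2, whose mRNA is known to peak in S phase. RRM2 had 10.82, 11.06 and 10.41 in inhibitor-treated cells, 11.86, 11.98 and 11.51 in MTAP+ cells and 12.18, 12.28 and 12.38 in MTAP- cells. The groups did not overlap, and the inhibitor-treated arrays were lowest, with a change of -1.02 ± 0.17 against MTAP+ cells (adjusted p = 0.00556), or 2.03-fold lower, the widest called fall among the members. MTAP+ cells differed from MTAP- cells by -0.50 ± 0.17 (adjusted p = 0.0693, or 0.0326 with the block).

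RRM1 had 10.90, 10.94 and 10.89 in inhibitor-treated cells, 11.06, 11.03 and 10.86 in MTAP+ cells and 11.53, 11.36 and 11.52 in MTAP- cells. Both MTAP+ groups lay below MTAP- cells, with a change of -0.48 ± 0.10 for untreated MTAP+ cells (adjusted p = 0.0083), and the inhibitor change was -0.08 ± 0.10 (adjusted p = 0.654). Averaging its probe sets removed the MTAP call (-0.03, adjusted p = 0.934) and the call between inhibitor-treated and MTAP- cells (-0.17, adjusted p = 0.488, against -0.56 ± 0.10 and 0.00178 on the probe set used).

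Thymidylate is made by TYMS and salvaged by TK1, and DUT keeps uracil out of DNA. TYMS had 12.32, 12.21 and 12.09 in inhibitor-treated cells, 12.76, 12.61 and 12.50 in MTAP+ cells and 12.98, 12.78 and 13.03 in MTAP- cells and fell with inhibitor by 0.42 ± 0.12 (adjusted p = 0.0388). The call was lost without any 1 of MTAP- replicate 1, MTAP+ replicates 1 and 2, and inhibitor-treated replicates 1, 2 and 3 (adjusted p from 0.0567 to 0.16). TK1 had 8.96, 9.08 and 8.82 in inhibitor-treated cells, 9.98, 9.61 and 9.51 in MTAP+ cells and 9.89, 9.79 and 8.60 in MTAP- cells. MTAP- replicate 3 was over 1 log2 unit below the other MTAP- arrays and inhibitor-treated arrays lay below the MTAP+ arrays, with -0.75 ± 0.29 (adjusted p = 0.113, or 0.0351 with the block).

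DUT had 11.79, 11.56 and 11.58 in inhibitor-treated cells, 11.84, 12.02 and 11.81 in MTAP+ cells and 11.64, 11.50 and 11.32 in MTAP- cells. The MTAP+ arrays lay above the MTAP- arrays, by 0.40 ± 0.12 (adjusted p = 0.04), and the inhibitor change was -0.25 ± 0.12 (adjusted p = 0.201). The MTAP call was lost without any 1 of MTAP- replicates 2 and 3, MTAP+ replicates 1, 2 and 3, and inhibitor-treated replicates 2 and 3 (adjusted p from 0.0558 to 0.131), and with arrays centred on medians (adjusted p = 0.072). Without probe sets of the s_at and x_at types, which can bind more than 1 transcript, it was represented by another probe set that gave -0.16. Its remaining probe set, of the s_at type, gave 0.75 ± 0.19 when all probe sets were fitted (adjusted p = 0.0253). In that fit the probe set used had an adjusted p of 0.0507.

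All 3 chromatin genes fell with inhibitor and none passed for MTAP status, where 7.49% of all genes fell with inhibitor and 18.5% passed for MTAP status. UHRF1, which reads hemimethylated DNA behind the fork and recruits the maintenance methyltransferase, had 9.38, 9.38 and 9.13 in inhibitor-treated cells, 10.39, 10.19 and 10.08 in MTAP+ cells and 10.31, 10.71 and 10.25 in MTAP- cells. The inhibitor-treated arrays lay below all others, with a change of -0.92 ± 0.14 against MTAP+ cells (adjusted p = 0.00396, 1.9-fold lower). CHAF1A and CHAF1B encode subunits of the chromatin assembly factor that places histones H3 and H4 on new DNA. CHAF1A had 8.43, 8.18 and 8.01 in inhibitor-treated cells, 8.94, 8.66 and 8.64 in MTAP+ cells and 8.94, 8.74 and 8.87 in MTAP- cells, and CHAF1B had 7.43, 7.46 and 7.39 in inhibitor-treated cells, 8.16, 7.96 and 7.99 in MTAP+ cells and 8.04, 7.96 and 8.04 in MTAP- cells. The inhibitor changes were -0.54 ± 0.13 for CHAF1A (adjusted p = 0.0254) and -0.61 ± 0.10 for CHAF1B (adjusted p = 0.00395). The CHAF1A call was lost without MTAP+ replicate 1 or inhibitor-treated replicates 2 or 3 (adjusted p from 0.0767 to 0.117).

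**Figure D3:**
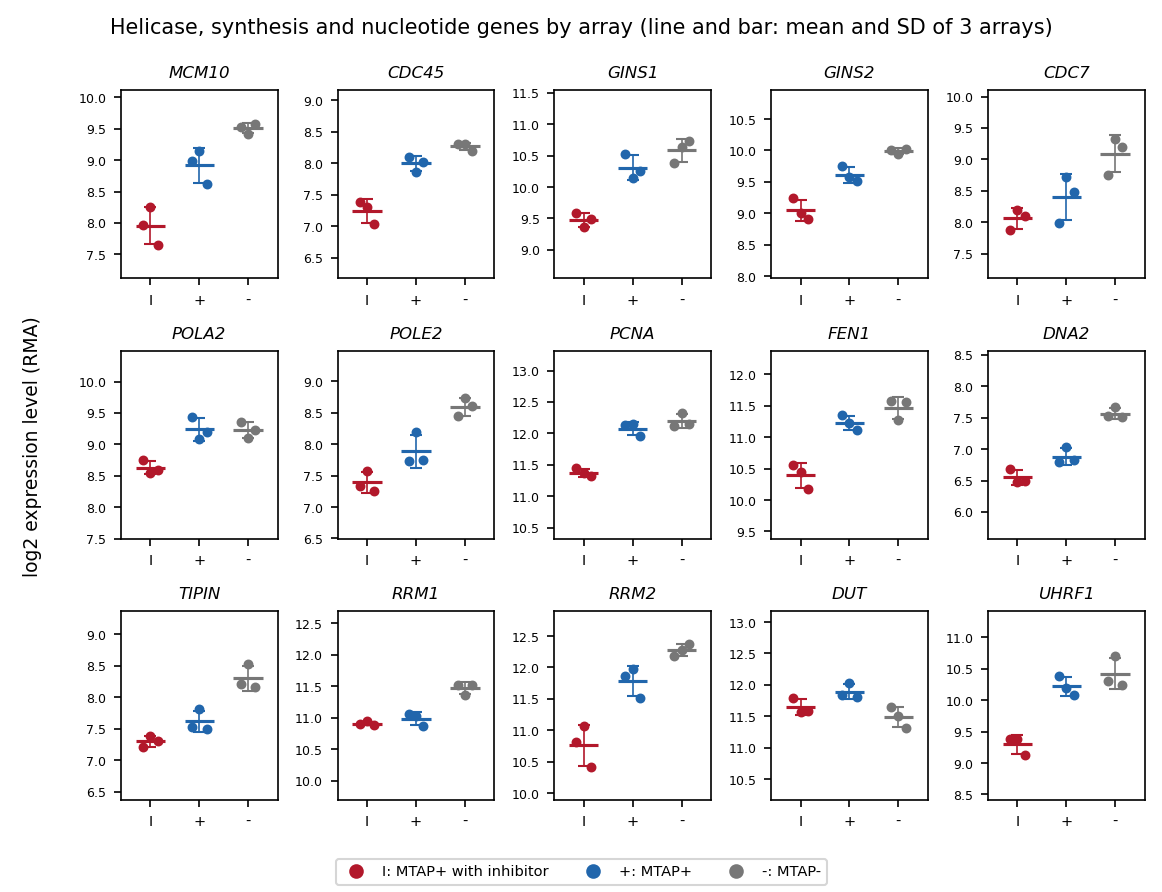
Log2 intensity (y axis) on each array for 15 genes of the helicase, DNA synthesis, nucleotide supply and chromatin, chosen with their values known, with inhibitor-treated cells at the left of each panel, MTAP+ cells in the middle and MTAP- cells at the right. Points are arrays, horizontal lines are group means and vertical bars are the SD (n = 3), and each panel spans the same range in log2 units. PCNA, FEN1, RRM2 and UHRF1 are lowest on the inhibitor-treated arrays, and RRM1 is highest on the MTAP- arrays.

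The members were covered by 82 probe sets with values, and 22 genes had more than 1 of them, which gives another reading of the same RNA on the same arrays. Fitted one by one among all probe sets with a single symbol, 27 of the 82 fell with inhibitor and 0 rose. The share over all probe sets was not counted. In that fit 17 of 55 members fell on the probe set of highest mean, where 566 of 9452 genes fell and 435 rose. All 22 genes had the same sign in every probe set for the inhibitor, against 11 of 22 for MTAP+ against MTAP- cells. How often other genes with several probe sets do so was not counted. The member median was -0.34 for the inhibitor and -0.21 for MTAP status. CDC6, GINS3, FEN1 and RRM2 were called on both of theirs, and the second RRM2 probe set gave -1.59 ± 0.15 (adjusted p = 0.00172). TK1, missed on the probe set used, was called on its other one (-0.80 ± 0.12, adjusted p = 0.00543), as were the other RFC5 probe sets (-0.63 ± 0.16 and -0.76 ± 0.16, adjusted p = 0.0405 and 0.0204). The MCM4, MCM5 and MCM7 probe sets stayed uncalled, with the other 2 of MCM4 at -0.52 ± 0.17 and -0.47 ± 0.13 (adjusted p = 0.0871 and 0.0519). For MTAP status the second RRM1 probe set gave 0.43 ± 0.30 (adjusted p = 0.354), opposite in sign to the one used.

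**Figure D4:**
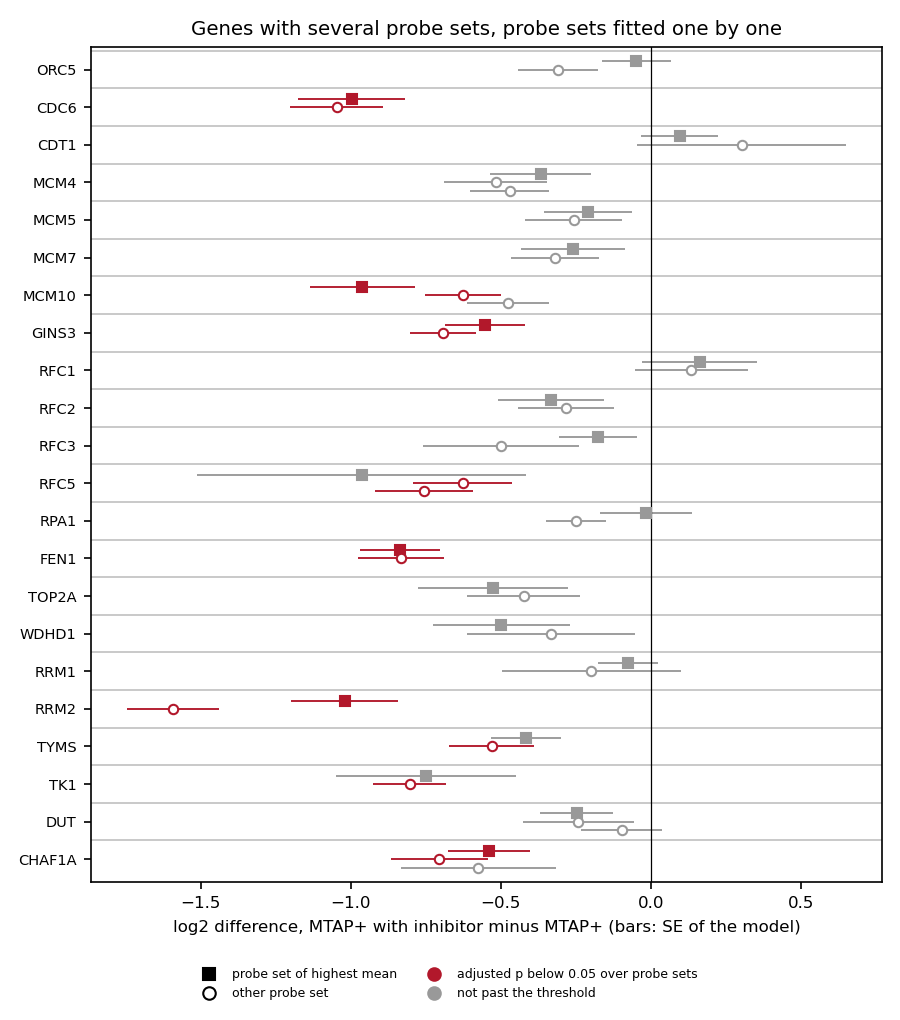
Log2 difference of inhibitor-treated minus MTAP+ cells (x axis, log2 units) for each probe set of the 22 members with more than 1 (rows). Squares are the probe sets of highest mean and circles the others, bars are the model's SE over 3 arrays a group, and red marks an adjusted p below 0.05 over probe sets. All probe sets of a gene lie on the same side of 0, and the second RRM2 probe set lies at -1.59.

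Since E2F factors bind promoters of S phase genes, the promoters of members that fell were read for E2F octamers. The sequences are 300 bases each, from 250 bases before to 50 after the annotated start (RefSeq, GRCh38.p14, matched for 50 of the 57 genes by symbol). The octamers searched on both strands were TTTCCCGC, TTTCGCGC, TTTGCCGC and TTTGGCGC. First come the 4 genes with the widest called inhibitor falls whose promoter holds one. RRM2 follows, the gene with the widest called fall whose promoter holds none. MCM6 comes last, added after its values were seen, as the member with the most octamers among those not called with inhibitor. Capitals mark the octamer on either strand, and positions are counted from the start base as 1.
CDC6, chr17:40287629-40287928, plus strand, octamer from base 8: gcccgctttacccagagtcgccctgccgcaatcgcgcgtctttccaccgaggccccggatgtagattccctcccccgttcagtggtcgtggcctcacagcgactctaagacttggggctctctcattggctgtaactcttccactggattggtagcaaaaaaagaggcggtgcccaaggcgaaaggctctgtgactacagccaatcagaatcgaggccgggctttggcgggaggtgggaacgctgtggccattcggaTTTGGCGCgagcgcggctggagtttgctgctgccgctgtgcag
UHRF1, chr19:4909251-4909550, plus strand, octamer from base -14: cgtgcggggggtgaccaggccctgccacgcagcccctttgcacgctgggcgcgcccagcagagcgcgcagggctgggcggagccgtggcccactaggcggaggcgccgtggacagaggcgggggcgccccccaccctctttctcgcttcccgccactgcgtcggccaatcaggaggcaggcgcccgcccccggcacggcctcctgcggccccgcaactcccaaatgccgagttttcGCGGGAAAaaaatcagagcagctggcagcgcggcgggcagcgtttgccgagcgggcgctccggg
GINS1, chr20:25407423-25407722, plus strand, octamer from base 6: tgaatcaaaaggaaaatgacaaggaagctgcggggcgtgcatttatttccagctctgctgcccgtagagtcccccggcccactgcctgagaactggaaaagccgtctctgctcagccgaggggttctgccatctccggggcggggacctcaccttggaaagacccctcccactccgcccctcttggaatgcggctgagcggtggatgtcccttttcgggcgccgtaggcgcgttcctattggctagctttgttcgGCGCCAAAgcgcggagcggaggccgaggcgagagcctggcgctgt
PCNA, chr20:5126573-5126872, minus strand, octamer from base -59: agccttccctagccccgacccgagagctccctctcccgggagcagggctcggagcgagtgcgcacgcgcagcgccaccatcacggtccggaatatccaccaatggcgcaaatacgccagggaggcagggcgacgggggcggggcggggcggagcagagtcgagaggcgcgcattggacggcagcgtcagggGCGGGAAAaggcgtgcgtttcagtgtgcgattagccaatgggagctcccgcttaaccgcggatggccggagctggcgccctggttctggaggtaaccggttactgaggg
RRM2, chr2:10122489-10122788, plus strand, no octamer: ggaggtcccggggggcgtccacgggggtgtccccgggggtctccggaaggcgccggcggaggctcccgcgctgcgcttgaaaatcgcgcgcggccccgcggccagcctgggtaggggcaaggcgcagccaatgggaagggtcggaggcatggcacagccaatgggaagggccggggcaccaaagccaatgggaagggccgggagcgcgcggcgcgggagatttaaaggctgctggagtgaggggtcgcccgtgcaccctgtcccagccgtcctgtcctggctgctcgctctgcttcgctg
MCM6, chr2:135876394-135876693, minus strand, 2 overlapping pairs from bases -152 and -90: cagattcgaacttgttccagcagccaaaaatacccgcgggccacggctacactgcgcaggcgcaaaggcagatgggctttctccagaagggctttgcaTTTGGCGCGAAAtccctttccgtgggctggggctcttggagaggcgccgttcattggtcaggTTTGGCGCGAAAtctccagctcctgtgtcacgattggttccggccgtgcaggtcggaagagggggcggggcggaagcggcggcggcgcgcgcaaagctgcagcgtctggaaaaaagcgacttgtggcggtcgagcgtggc

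An octamer was found in 20 of 50 member promoters (40%), against 908 of 27305 promoters of the table (3.33%). It was in 8 of the 19 members that fell with inhibitor (42.1%) and in 11 of the 30 measured members with a promoter that did not pass in that comparison (36.7%). MCM6, with 4 overlapping matches, changed by -0.07 with inhibitor, and RRM2, with none, by -1.02. Both were picked by octamer count and call, so the pair is no evidence on octamers and falls. Whether these go together was not tested. The CCAAT box of the factor NF-Y was in 28 of 50 members (56%) against 35.7% of all promoters, and in 12 of the 19 that fell (63.2%). The TTTGAA element found in promoters of mitotic genes was in 3 of 50 members (6%) against 15.4% of all, and in 0 of the 19. These are matches of letters in a window and say nothing of binding.

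The rest of the replication machinery was followed with a list of 42 further genes, of which 36 had values. With inhibitor 10 fell and 0 rose, where 7.49% of all genes fell and 5.95% rose, and the median was -0.29. The widest were the histone chaperone ASF1B (-0.96 ± 0.15, adjusted p = 0.00376), the chromatin remodeller HELLS (-0.88 ± 0.17, adjusted p = 0.00977), the fork protein DONSON (-0.63 ± 0.12, adjusted p = 0.00884) and the PCNA deubiquitinase USP1 (-0.57 ± 0.12, adjusted p = 0.0148). DONSON was higher in MTAP+ than in MTAP- cells (0.59 ± 0.12, adjusted p = 0.00775), one of 3 genes of 36 that were higher there while 6 were lower, where 11.7% of all genes were higher and 6.85% lower. Among the lower ones was the helicase gene BLM (-0.67 ± 0.16, adjusted p = 0.0179). Between inhibitor-treated and MTAP- cells 13 fell and 1 rose, where 16.2% of all genes fell and 18.8% rose, led by HELLS (-1.49 ± 0.17) and the exonuclease gene EXO1 (-1.06 ± 0.11).

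Of 22 further nucleotide genes 17 had values, and with inhibitor 4 fell and 1 rose. Over all genes 7.49% fell and 5.95% rose, so the single rise is at the background share. The thymidylate kinase DTYMK (-0.63 ± 0.15, adjusted p = 0.0222) and the deoxycytidine kinase DCK (-0.57 ± 0.12, adjusted p = 0.0147) were lower, as were the UMP synthase UMPS (-0.47 ± 0.11, adjusted p = 0.0186) and the CTP synthase CTPS1 (-0.47 ± 0.13, adjusted p = 0.0454), while its paralogue CTPS2 was higher (0.61 ± 0.11, adjusted p = 0.00758). For MTAP+ against MTAP- cells 3 were lower and 1 higher, or 5 and 2 with the replicate block, where 6.85% of all genes were lower and 11.7% higher, or 9.96% and 16% with the block. The higher one was the mitochondrial thymidine kinase gene TK2 (0.58 ± 0.15, adjusted p = 0.0254), while the reductase subunit RRM2B was among the lower ones (-0.69 ± 0.18, adjusted p = 0.0262). Against MTAP- cells inhibitor-treated cells had 8 lower, with CTPS1 widest (-1.10 ± 0.13), and 1 higher, where 16.2% of all genes were lower and 18.8% higher.

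The fall with inhibitor was not limited to replication genes. A list of 28 genes of mitosis, all measured, had 20 lower and 0 higher with inhibitor and a median of -0.67, where 7.49% of all genes were lower. The widest changes included the cytokinesis kinesins KIF23 (-1.09 ± 0.20, adjusted p = 0.00758) and KIF20A (-0.95 ± 0.12, adjusted p = 0.00164) and the cyclin CCNB1 (-0.84 ± 0.15, adjusted p = 0.00605). For MTAP+ against MTAP- cells 2 of 28 were lower (7.14%), close to the 6.85% of all genes: CDC20 (-0.48 ± 0.12, adjusted p = 0.0252) and NDC80 (-0.48 ± 0.15, adjusted p = 0.0467). With the replicate block 6 were lower and 1 higher, where 9.96% of all genes were lower and 16% higher. Inhibitor-treated cells against MTAP- cells had 25 lower, where 16.2% of all genes were. The difference between these lists and the replication genes was not tested.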

How the data were processed

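Total RNA of the 9 cultures was labelled with biotin and hybridised to Affymetrix arrays. The authors made the deposited log2 values with RMA, per the submitters' processing notes. RMA corrects background, sets arrays to common quantiles and summarises probes, and the sources used here do not give its version. Of 54675 probe sets 17474 had values, each reaching log2 of 100 on 3 arrays or more, which leaves dim genes out. Here 15485 probe sets with 1 symbol in the platform annotation, 15482 of them matched to RefSeq genes, gave 9453 genes, each by its probe set of highest mean. 841 probe sets naming several genes, 4 of them a member, were left unnamed.

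Differences were fitted with limma 3.58.1 in R 4.3.3 (lmFit and eBayes, 3 groups as levels, all 9 arrays), adjusted by Benjamini-Hochberg over all genes, with 0.05 as threshold and MTAP left out of counts. The script was tested on simulated data. Precision is limited by 3 arrays a group, with a median SE of 0.13 for a member's log2 change. The sample labels number the replicates without stating that they are paired. Deviations of same-numbered arrays correlated at 0.30 to 0.72 for inhibitor-treated against MTAP+ cells and 0.13 to 0.35 for MTAP+ against MTAP- cells. For inhibitor-treated against MTAP- cells they correlated at 0.02 to 0.29, which overlaps the second range. Arrays of different numbers gave -0.67 to 0.11 over all comparisons. Members, lists and tests were chosen with earlier results of these data known. Values on all arrays are given for members called in any comparison and, per role, for the uncalled member of highest mean. Of the other lists, up to 4 called genes with the widest change are named.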

Additional observations from a re-analysis of the deposited data

How the results depend on the processing

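For each comparison 23 alternatives were run, and 1 of them, the ACTB covariate with the replicate block, was chosen after seeing the data. Of the members called, 11 of 19 with inhibitor, 0 of 11 for MTAP+ against MTAP- cells and 20 of 35 for inhibitor-treated against MTAP- cells stayed called in every alternative that gave a value. The 11 were ORC6, CDC6, GMNN, MCM10, CDC45, GINS1, PCNA, FEN1, RRM2, UHRF1 and CHAF1B. Of the called members 1 turned sign in an alternative, DUT for MTAP status, at -0.16 without s_at and x_at probe sets. Without those probe sets 38 members were tested, and 11 were called with inhibitor, 6 for MTAP status and 23 for inhibitor-treated against MTAP- cells. Over the 6694 genes tested there the calls were 890, 1235 and 2355 in that order. With a filter at the 60th percentile the calls over the 5055 genes tested were 785 with inhibitor, 977 for MTAP status and 1929 for inhibitor-treated against MTAP- cells. The last had 23 members of 39 tested. Fewer genes are tested under both of these.

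The replicate block gave 1919 calls over all genes with inhibitor, and array weights gave 2057. With only the 2 groups compared, MTAP status gave 1004 calls and 7 members. The ACTB covariate gave 662 calls and 6 members for MTAP status. With the block added it gave 98 calls and 0 members there, and 1464 calls and 22 members with inhibitor. For inhibitor-treated against MTAP- cells it gave 1127 calls and 22 members. That fit had few residual degrees of freedom, the same in all 3 comparisons. The member median for MTAP status was -0.29 with arrays centred on medians and -0.29 after renewed quantile normalization. The causes of these shifts were not tested.

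Leaving out 1 array at a time, calls over all genes ranged from 370 to 1254 with inhibitor, 1014 to 2063 for MTAP status and 2321 to 3726 for inhibitor-treated against MTAP- cells. Member calls ranged from 11 to 20, 6 to 11 and 28 to 36 in that order, and member medians from -0.40 to -0.32, -0.27 to -0.17 and -0.60 to -0.50. For inhibitor-treated against MTAP+ and MTAP+ against MTAP- cells, the replicate block changed no member call other than those given with it. Dim genes were removed before deposit, so nothing can be said of them, and the smallest change called with inhibitor among the members was -0.41.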
